A study of Sus scrofa with 4 samples.

Results

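The macrophage and monocyte genes of the pig were examined in 4 RNA sequencing libraries of pig kidney. The group was a list of 34 symbols, of which 33 were found in the deposited tables and 29 had 10 or more counts in at least 1 library, out of 18168 genes that met the same minimum and 26466 symbols in all. Each library was the only one of its group. In GalT-/-;hCD39;hCD55 pigs, called CD39/CD55 here, 1 kidney was untransplanted and 1 was taken 4 weeks after transplantation into a non-human primate. In GalT-/-;hCD39;hCD46;hCD55;TBM pigs, called CD39/CD46/CD55/TBM, 1 kidney was untransplanted and 1 was taken 6 weeks after transplantation. All 4 pig kidneys therefore shared the loss of GalT, the enzyme that makes the alpha-Gal antigen, together with human CD39, which degrades extracellular ATP, and human CD55, which restrains complement. The second genotype added human CD46, a further complement regulator, and thrombomodulin (TBM), which acts against clotting. The libraries form a 4-week pair (CD39/CD55) and a 6-week pair (CD39/CD46/CD55/TBM), and counts are given in the order untransplanted, then transplanted. The labels and protocols used here do not give the promoters of the transgenes, the age of the animals, the species of primate, its treatment or whether any kidneys came from 1 animal. Between the 2 transplanted kidneys, genotype, weeks after transplantation and recipient cannot be told apart. The series was designed to choose between these donor genotypes by how well they ease rejection.

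Macrophages of the kidney lie between the tubules and around the vessels, where they take up debris and make complement C1q. They depend on the growth factor receptor CSF1R, and their receptors signal through small adaptor proteins such as TYROBP and FCER1G. Monocytes arrive from the blood, guided by chemokine receptors, and carry receptors for bacterial products and for complement fragments. Macrophages loaded with lipid or debris are known for another set of genes, TREM2 and GPNMB among them. After a transplant, the macrophages of the donor can be replaced by cells of the recipient. The counts here are of reads assigned to pig genes, and the sources used here do not say what became of reads from primate cells.

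Total counts ranged from 10346863 (CD39/CD46/CD55/TBM, transplanted) to 14092905 (CD39/CD55, untransplanted). Levels are given as counts or as scaled CPM, which is CPM, counts relative to library depth, after TMM scaling for composition. A count of 0 allows up to 3 counts, or 0.218 to 0.290 scaled CPM across the libraries. The kidney markers LRP2, UMOD and NPHS1, of proximal tubule, thick ascending limb and podocyte, had counts in every library. The 29 genes took 0.0911% (exact 95% binomial interval 0.0895% to 0.0927%) and 0.0375% (0.0364% to 0.0386%) of all counts in the 4-week pair, against 0.0508% (0.0496% to 0.0520%) and 0.0606% (0.0592% to 0.0622%) in the 6-week pair. These totals were made up mostly of CYBA and GPNMB. Without those 2 genes, the summed level of the other 27 was 179.6 and 42.8 scaled CPM in the 4-week pair, 4.20-fold lower after transplantation. In the 6-week pair it was 163.9 and 57.1 scaled CPM, 2.87-fold lower.

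Transplanted kidneys were first set against untransplanted ones in both pairs at once, 2 libraries a side, by edgeR's quasi-likelihood test over all 18168 genes. Of the 29 macrophage and monocyte genes, 11 fell, where 2.71% of all genes tested fell, and 1 rose, where 1.24% of all genes rose. The genes that fell were C1QA, C1QB, C1QC, CSF1R, VSIG4, MS4A7, AIF1, C3AR1, TYROBP, FCER1G and CYBA, and the one that rose was GPNMB. The median log2 fold change of the 29 was -1.87, beside 0.03 for all genes tested. In 22 of the 29 both transplanted libraries lay below both untransplanted ones, as in 25.5% of all genes, and in 2 both lay above, as in 26.3%. The minimum of 10 counts was reached only in untransplanted kidneys by 9 of the 29 and only in transplanted kidneys by none, so these 9 could be kept only by being high before transplantation. Of the other 20, in a count added after seeing the data, 4 fell and 1 rose, with a median log2 fold change of -1.08. In bulk tissue, fewer cells of a type and less RNA per cell cannot be told apart.

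The same genes were then compared within each genotype, 1 library against 1. A gene was called where the ratio of scaled counts was at least 2-fold and its exact 95% counting interval excluded 1. With 1 library a side this rule covers counting error only and gives no test of transplantation. In the 4-week pair, 22 of the 29 were called lower and 2 higher, beside 13.7% and 13.2% of all genes. In the 6-week pair, 18 were called lower and 3 higher, beside 16.3% and 15.9%. The median log2 ratios were -2.17 and -1.64, and those of all genes tested 0.03 and 0.01. The 2 genotypes share no library in these ratios. Across the 29 genes the ratios of the genotypes had Pearson's r of 0.84 and Spearman's rho of 0.85, and across all genes tested 0.56 and 0.55. This describes genes within 4 libraries, and genes are not independent replicates. The 29 include the 9 genes kept only by being high before transplantation, which favours low ratios in these counts, medians and correlations. The correlations were not computed without them, and ratios of genes with no count rest on the prior count of 0.5.

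**Figure D1:**
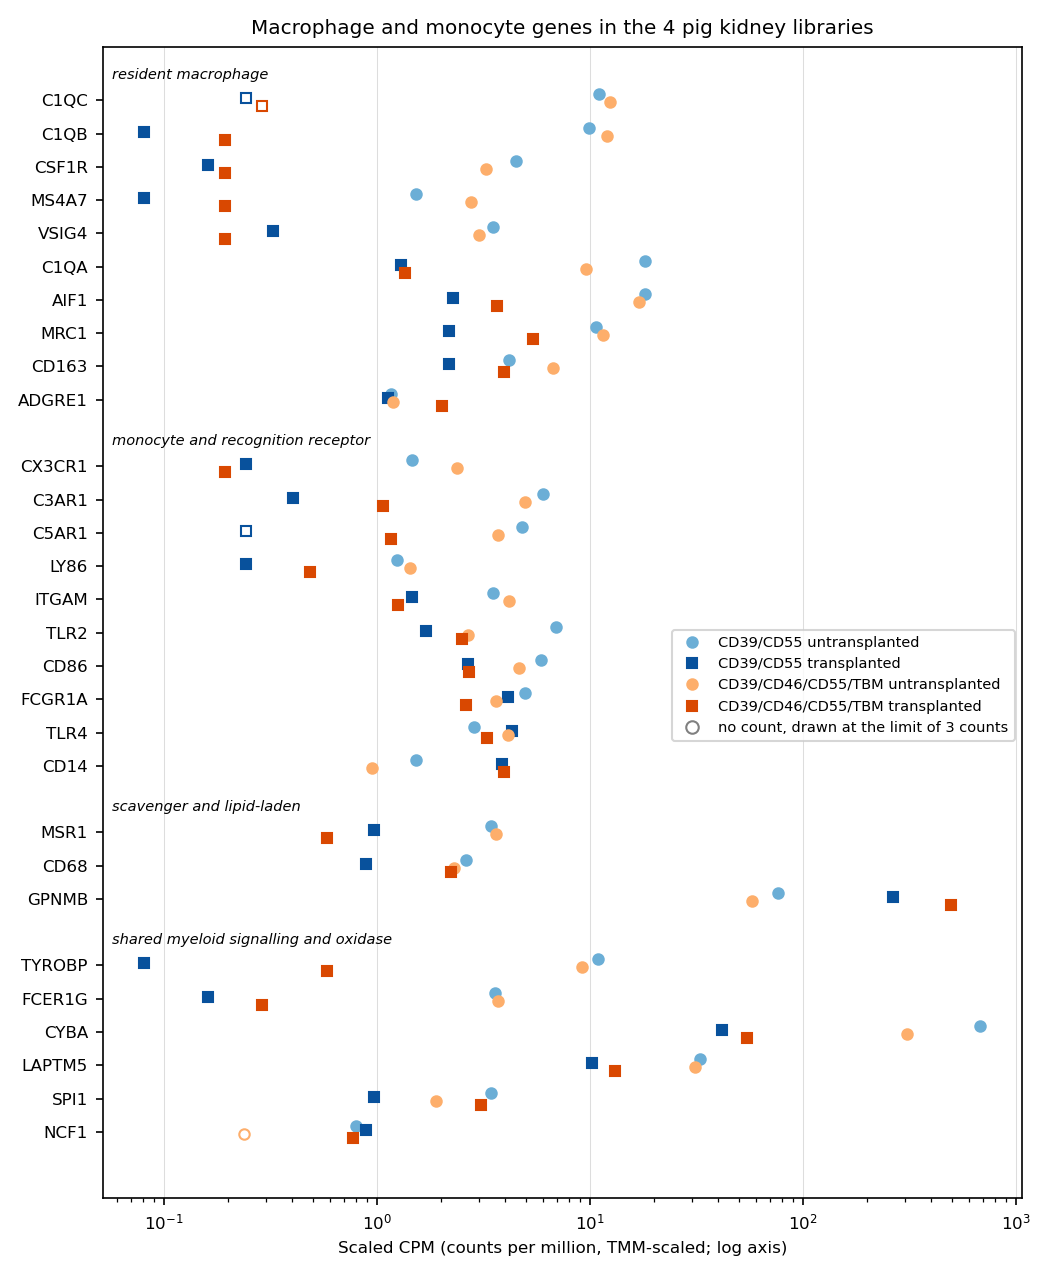
Level of each of the 29 macrophage and monocyte genes in the 4 libraries, in scaled CPM on a log axis, grouped by role. Circles are untransplanted and squares transplanted kidneys, and an open symbol marks a library with no count, drawn at the limit of 3 counts, so 1 or 2 counts lie to its left. The squares of C1QC, C1QB, CSF1R, TYROBP and FCER1G lie far to the left of their circles, those of GPNMB to the right, and those of ADGRE1 and TLR4 among them.

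Of 10 resident macrophage genes kept, 7 fell and none rose, beside 2.71% and 1.24% of all genes. The median log2 fold change of the 10 was -3.48. Of these 10, C1QB, C1QC, VSIG4, CSF1R and MS4A7 met the minimum only in untransplanted kidneys, and among the other 5, whose median was -1.55, C1QA and AIF1 fell. The summed level of the 10 was 82.8 and 9.69 scaled CPM in the 4-week pair and 79.3 and 17.2 in the 6-week pair. The 3 chains of C1q, the molecule that starts the classical complement pathway, all fell. Their genes lie side by side in the order C1QA, C1QC, C1QB within 19818 bases of chromosome 6 (80586259 to 80606076, Sscrofa11.1), with no other annotated gene between them.

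C1QC (chromosome 6, 80592591 to 80597464) had 152 and 158 counts in the untransplanted CD39/CD55 and CD39/CD46/CD55/TBM kidneys and none in either transplanted one. With 3 counts in place of 0, it was 45.7-fold lower in the first genotype and 43.1-fold lower in the second (adjusted p = 0.00098, edgeR). C1QB had 136 counts before and 1 after transplantation in the 4-week pair, and 152 and 2 in the 6-week pair, with a fitted log2 change over both pairs of -6.26 (SE 0.72, adjusted p = 0.00107). C1QA kept more of its counts. It had 249 and 16 in the 4-week pair and 121 and 14 in the 6-week pair, with a fitted log2 change over both pairs of -3.38 (SE 0.56, adjusted p = 0.00654). In both genotypes the counting interval of C1QA lay above that of C1QC (CD39/CD55 -4.64 to -3.08 for C1QA and at most -5.20 for C1QC on the log2 scale, CD39/CD46/CD55/TBM -3.73 to -2.02 and at most -5.11). C1QA made up 46.4% and 28.1% of the counts of the 3 genes in the untransplanted kidneys and 94.1% and 87.5% in the transplanted ones, which rest on 16 and 14 counts of C1QA. C1QB and C1QC could be kept only by being high before transplantation, so their contrast with C1QA describes counts and was not tested. Next to the cluster, EPHB2 had 11 and 16 counts in the 4-week pair and 11 and 13 in the 6-week pair, and EPHA8 had at most 1. LOC110261111, between EPHA8 and C1QA, had 8 and 0, and 3 and 1 counts.

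CSF1R, the receptor through which CSF1 and IL34 keep macrophages alive (chromosome 2, 151102138 to 151130311), fell with them. It had 62 and 2 counts in the 4-week pair and 41 and 2 in the 6-week pair, with a fitted log2 change over both pairs of -4.38 (SE 0.82, adjusted p = 0.0126). AIF1, a calcium-binding protein of macrophages also called IBA1, fell from 250 to 28 counts in the 4-week pair and from 214 to 38 in the 6-week pair (log2 change -2.57, SE 0.49, adjusted p = 0.0137). The annotation of AIF1 overlaps that of LST1, another leukocyte gene, which had 185 and 21, and 111 and 18 counts. Reads of the 2 genes cannot be told apart where they overlap, since no source used here states whether counting used strand.

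VSIG4, a complement receptor of tissue macrophages, fell from 48 to 4 counts in the 4-week pair and from 38 to 2 in the 6-week pair (log2 change -3.58, SE 0.80, adjusted p = 0.0264). The membrane protein gene MS4A7 fell from 21 to 1 count and, at 6 weeks, from 35 to 2 (-3.91, SE 0.996, adjusted p = 0.0473). Both rest on few counts after transplantation, and both depended on single libraries. VSIG4 did not pass without the untransplanted CD39/CD55 library (adjusted p = 0.0884) or the transplanted CD39/CD46/CD55/TBM library (0.0533). MS4A7 did not pass without the transplanted CD39/CD55 library (adjusted p = 0.0601) or either of the CD39/CD46/CD55/TBM libraries (0.202 on leaving out the untransplanted and 0.0538 on leaving out the transplanted one). MS4A7 overlaps MS4A4A, a related macrophage gene, which had 36 and 17, and 52 and 17 counts.

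The remaining 3 resident genes did not pass the test. MRC1, the mannose receptor, had 146 and 27 counts in the 4-week pair and 145 and 56 in the 6-week pair (log2 change -1.55, SE 0.54, adjusted p = 0.131), though it passed without the transplanted CD39/CD46/CD55/TBM library (0.0380). CD163, the scavenger receptor for haemoglobin bound to haptoglobin, had 57 and 27, and 85 and 41 (-0.83, SE 0.56, adjusted p = 0.444). Both transplanted libraries were below both untransplanted ones for each of these genes. ADGRE1, the F4/80 antigen, had 16 and 14, and 15 and 21 counts, and its groups overlapped (0.42, SE 0.74, adjusted p = 0.795). The counting intervals of CD163 (-1.65 to -0.24 and -1.34 to -0.21) lay wholly above those of CSF1R (-7.88 to -2.89 and -7.16 to -2.12) in both genotypes. CSF1R could be kept only by being high before transplantation, so this contrast describes counts and was not tested. SIGLEC1, a sialic acid receptor, had 2 to 4 counts in each library and stayed under the minimum.

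**Figure D2:**
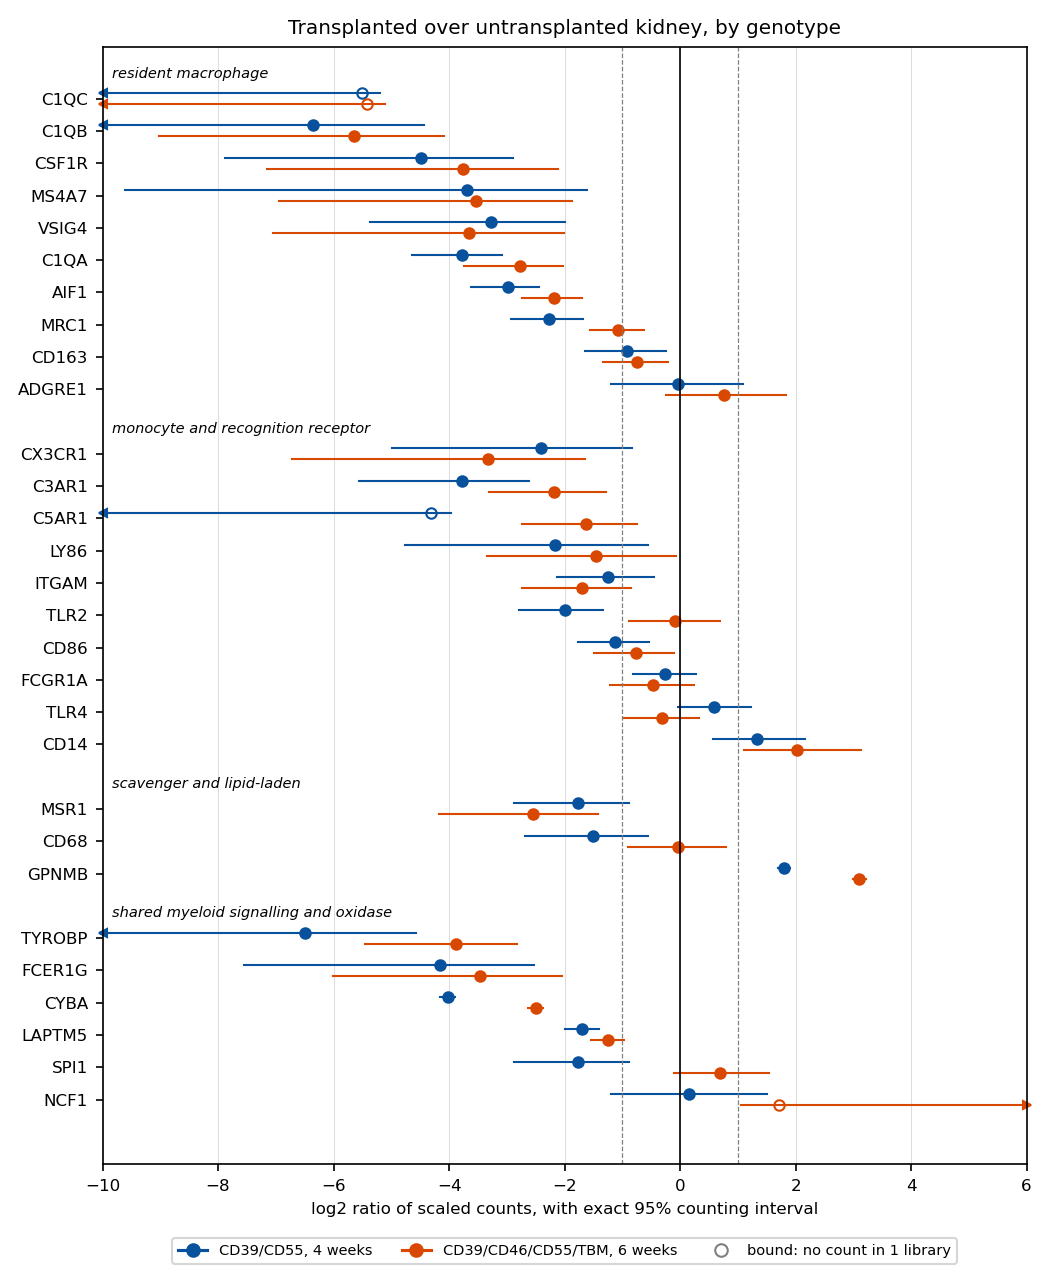
The log2 ratio of transplanted over untransplanted kidney for each gene, with its exact 95% counting interval, in CD39/CD55 at 4 weeks and CD39/CD46/CD55/TBM at 6 weeks. Open symbols are bounds for genes with no count in 1 library, arrows mark intervals that leave the plot, and dashed lines mark 2-fold. Resident genes and adaptors spread to the left, CD14 and GPNMB lie to the right in both genotypes, and SPI1, TLR2, CYBA and C5AR1 lie apart between the genotypes.

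Genes of monocytes and of recognition receptors had a median log2 fold change of -1.34, or -1.08 without CX3CR1 and LY86, which met the minimum only in untransplanted kidneys. Of 10 kept, 1 fell and none rose, beside 2.71% and 1.24% of all genes. The summed level of the 10 was 39.2 and 19.0 scaled CPM in the 4-week pair and 32.7 and 19.2 in the 6-week pair. Whether this group differs from the resident group was not tested. C3AR1, the receptor for the complement fragment C3a (chromosome 5, 63088778 to 63098750), fell from 83 to 5 counts in the 4-week pair and from 63 to 11 in the 6-week pair (log2 change -2.92, SE 0.67, adjusted p = 0.0305). It did not pass without the untransplanted CD39/CD55 library (adjusted p = 0.0798). C5AR1, the receptor for C5a, had 66 counts and none in the 4-week pair. With 3 counts in place of 0, it was 19.8-fold lower after transplantation (log2 interval at most -3.97). In the 6-week pair it had 47 and 12, a log2 ratio of -1.64 (interval -2.73 to -0.74), and over both genotypes its adjusted p was 0.121. Without the transplanted CD39/CD46/CD55/TBM library C5AR1 passed (adjusted p = 0.000477).

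CD14, the coreceptor for bacterial lipopolysaccharide, went the other way. It had 21 and 48 counts in the 4-week pair and 12 and 41 in the 6-week pair, so both transplanted libraries were above both untransplanted ones, and it was called higher in both genotypes (log2 ratios 1.32 and 2.02). In the test over both genotypes it did not pass (1.65, SE 0.62, adjusted p = 0.165). TLR4, which signals with CD14, had 39 and 53, and 52 and 34 counts, with groups that overlapped (adjusted p = 0.92). LY86, also called MD-1, which pairs with the TLR4 relative CD180, had 17 and 3, and 18 and 5 counts (adjusted p = 0.285). TLR2, a receptor for bacterial lipoproteins, had 95 and 21 counts in the 4-week pair and 34 and 26 in the 6-week pair (adjusted p = 0.314). Only its CD39/CD55 ratio was called, at -2.00 (interval -2.78 to -1.33).

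Both chemokine receptors of the list were scarce. CX3CR1, the fractalkine receptor of patrolling monocytes and resident macrophages, had 20 and 3 counts in the 4-week pair and 30 and 2 in the 6-week pair. It was called lower in both genotypes, at -2.40 (interval -4.98 to -0.83) and -3.32 (-6.73 to -1.64), and missed the threshold of the test (adjusted p = 0.087). CCR2, the receptor that draws monocytes from the blood, had 1 count in the untransplanted CD39/CD55 kidney and none elsewhere, so no difference was detectable at this depth. ITGAM, the integrin chain CD11b of monocytes and neutrophils, had 48 and 18, and 53 and 13 counts (-1.49, SE 0.61, adjusted p = 0.198). It overlaps the provisional gene LOC110259903, whose counts of 53 and 13, and 60 and 17 were close to its own, so reads may be shared.

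FCGR1A, the high-affinity receptor for IgG, had 68 and 51 counts in the 4-week pair and 46 and 27 in the 6-week pair, with groups that overlapped (-0.35, SE 0.55, adjusted p = 0.765). FCGR1A overlaps LOC100155404, which had 97 and 82, and 100 and 44 counts. CD86, a costimulatory ligand of antigen-presenting cells, had 81 and 33, and 59 and 28 counts (-0.97, SE 0.53, adjusted p = 0.335). Both of its transplanted libraries were below both untransplanted ones.

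Scavenger and lipid-laden genes did not share a direction. GPNMB, a transmembrane glycoprotein of macrophages that digest lipid and debris (chromosome 9, 92037428 to 92071501), was the 1 gene of the 29 that rose. It had 1049 and 3290 counts in the 4-week pair and 731 and 5120 in the 6-week pair, and both transplanted kidneys lay well above both untransplanted ones. The log2 change was 2.50 (SE 0.50, adjusted p = 0.0163), but on leaving out the untransplanted CD39/CD46/CD55/TBM library it did not pass (adjusted p = 0.0726). TREM2, the lipid receptor of the same macrophages, had 1 count in a single library and none in the others. GPNMB is also made outside macrophages, and which cells carried it cannot be told from these counts.

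MSR1, a scavenger receptor for modified lipoproteins, had 47 and 12 counts in the 4-week pair and 46 and 6 in the 6-week pair (-2.16, SE 0.68, adjusted p = 0.0993). It was called lower in both genotypes. CD68, a glycoprotein of phagocyte lysosomes, had 36 and 11 counts in the 4-week pair, where it was called lower, and 29 and 23 in the 6-week pair, where it was not (adjusted p = 0.629). MARCO, another scavenger receptor, had 2 to 5 counts in each library. GPNMB alone therefore set the summed level of this group, which was 82.4 and 267.5 scaled CPM in the 4-week pair and 63.7 and 497.3 in the 6-week pair.

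A list of 35 other genes known from lipid-laden macrophages and lysosomes, of which 33 were kept, was set beside GPNMB. Of these, 4 rose and none fell, beside 1.24% and 2.71% of all genes, and the median log2 fold change was -0.15. An unadjusted p under 0.05 was reached by 7 that were higher and 8 that were lower, beside 1633 and 1946 of all 18168 genes. In the 4-week pair 7 of the 33 were called higher and 10 lower, beside 13.2% and 13.7% of all genes. In the 6-week pair 9 were called higher and 9 lower, beside 15.9% and 16.3%. Calls were thus more frequent than among all genes in both directions, and the list as a whole had no common direction. A call depends on counts as well as on the ratio, and the 33 genes were not matched to others by level. The secreted protein gene SPP1 (osteopontin), named as the one with the smallest p, had 877 and 17836, and 597 and 25798 counts (5.15, SE 0.61, adjusted p = 0.00124). The cholesterol exporter ABCG1 had 27 and 120, and 28 and 134 (2.43, SE 0.51, adjusted p = 0.0207). LGALS3 (galectin-3) had 192 and 495, and 263 and 1107 counts, and the exporter ABCA1 485 and 1353, and 628 and 1965, with adjusted p of 0.0395 and 0.0444. Leaving out the untransplanted CD39/CD55 library ended the calls of ABCG1, LGALS3 and ABCA1 (adjusted p 0.0612, 0.140 and 0.292). Leaving out the transplanted CD39/CD46/CD55/TBM library ended those of LGALS3 and ABCA1 (0.221 and 0.126), and leaving out its untransplanted counterpart that of ABCA1 (0.0774). The transcription factors MITF, TFEB and TFE3, which drive lysosome genes, were not called in either genotype, and the fatty acid receptor CD36 had 335 and 100, and 211 and 24 counts (adjusted p = 0.0743). All of these genes are expressed outside macrophages as well.

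**Figure D3:**
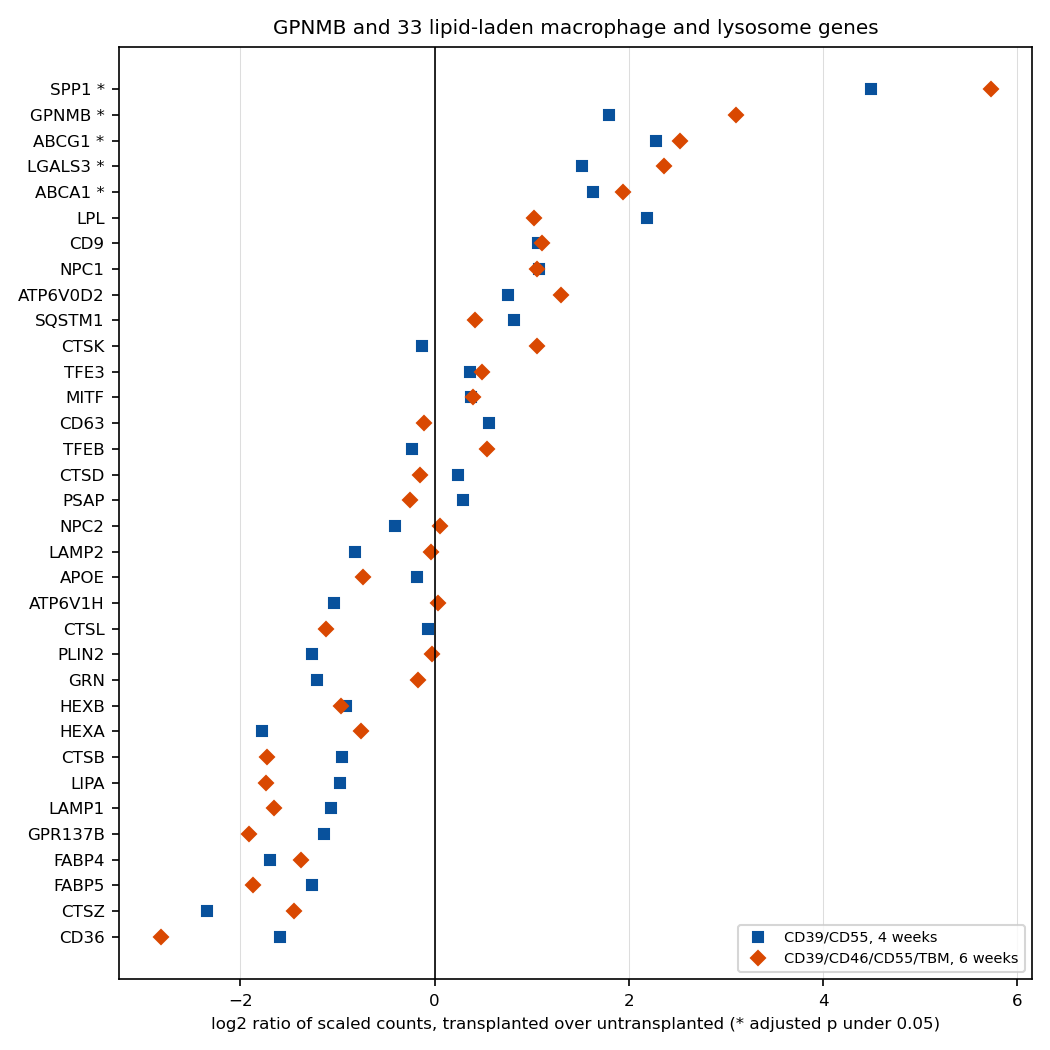
The log2 ratio of transplanted over untransplanted kidney in CD39/CD55 (squares) and CD39/CD46/CD55/TBM (diamonds) for GPNMB and 33 genes known from lipid-laden macrophages and lysosomes, ordered by the mean of both. An asterisk marks an adjusted p under 0.05 in the test over both genotypes. SPP1, GPNMB, ABCG1, LGALS3 and ABCA1 lie to the right, while CD36, CTSZ and the FABP genes lie to the left.

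Of the signalling and oxidase genes shared by myeloid cells, 3 of 6 kept fell and none rose, beside 2.71% and 1.24% of all genes. The median log2 fold change of the 6 was -2.41. Among these, TYROBP and FCER1G met the minimum only in untransplanted kidneys, and the other 4 had a median of -0.93 with 1 that fell, CYBA. TYROBP (DAP12), the adaptor of TREM2 and of activating lectins (chromosome 6, 45309199 to 45312562), fell from 150 counts to 1 in the 4-week pair and from 116 to 6 in the 6-week pair. Its log2 change was -4.95 (SE 0.75, adjusted p = 0.00441). FCER1G, the common gamma chain through which Fc receptors signal, fell from 49 to 2 counts in the 4-week pair and from 47 to 3 in the 6-week pair (-3.98, SE 0.80, adjusted p = 0.0175). Fc receptors that use FCER1G stood on other lists. FCGR3A (CD16) fell from 160 to 0 and from 330 to 3 counts (adjusted p = 0.00179). The IgE receptor genes MS4A2, from 124 to 3 and from 114 to 3, and FCER1A, from 26 to 0 in both genotypes, also fell (adjusted p = 0.00207 and 0.0206). FCGR3A, MS4A2 and FCER1A met the minimum only in untransplanted kidneys, so they could be kept only by being high before transplantation. FCGR1A, which pairs with FCER1G too, kept the counts given above.

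CYBA, the p22phox chain of NADPH oxidases (chromosome 6, 1015212 to 1021422), had the most counts of the list before transplantation, 9322 in the 4-week pair and 3911 in the 6-week pair. It fell to 517 and 564, with a fitted log2 change over both pairs of -3.36 (SE 0.54, adjusted p = 0.00592). CYBA is not confined to phagocytes, since it also pairs with NOX4, the oxidase of kidney tubules. NOX4 fell from 5252 to 548 counts in the 4-week pair and from 6664 to 271 in the 6-week pair (-3.69, SE 0.52, adjusted p = 0.00313). CYBB, the phagocyte oxidase that pairs with CYBA, is not a symbol in the tables, but RefSeq gives CYBB as a synonym of GP91-PHOX. GP91-PHOX had 22 and 2 counts in the 4-week pair and 32 and 5 in the 6-week pair (-2.67, SE 0.90, adjusted p = 0.119).

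NCF1, the cytosolic organiser p47phox, had 11 and 11 counts in the 4-week pair and 0 and 8 in the 6-week pair (adjusted p = 0.681). In the second genotype it was 3.26-fold higher after transplantation with 3 counts in place of 0, on 8 counts (log2 interval at least 1.06). Of 5 other oxidase genes kept, NOX4 was the 1 that fell and none rose, beside 2.71% and 1.24% of all genes. The cytosolic subunit NCF4 had 200 and 47, and 142 and 53 counts, and the GTPase RAC2 90 and 14, and 60 and 16 (adjusted p = 0.0955 and 0.0699).

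LAPTM5, a lysosomal membrane protein of blood cells, had 453 and 126 counts in the 4-week pair and 395 and 136 in the 6-week pair (-1.46, SE 0.42, adjusted p = 0.0717). It was called lower in both genotypes, at -1.69 and -1.24. SPI1 encodes PU.1, the transcription factor that sets the myeloid lineage. It had 47 and 12 counts in the 4-week pair, a log2 ratio of -1.78 (interval -2.87 to -0.88). In the 6-week pair it had 24 and 32, a ratio of 0.70 (-0.10 to 1.53), and its groups overlapped (adjusted p = 0.792).

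The genotypes were compared next, the question for which the series was designed. Over both states, 2 libraries a side, edgeR's quasi-likelihood test called none of the 29 genes higher or lower in CD39/CD46/CD55/TBM, and it called 0% of all genes tested in either direction. An unadjusted p under 0.05 was reached by 0 of the 29 and by 449 of all genes, and DESeq2's Wald test and limma voom also called 0 of the 29. Each side held an untransplanted and a transplanted kidney, and state was not in the model. Changes on transplantation therefore widened the spread, so the lack of calls does not show that the genotypes were alike. With state as a block, which leaves 1 residual degree of freedom, 0 of the 29 were called.

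Between the untransplanted kidneys, none of the 29 was called higher in CD39/CD46/CD55/TBM and 3 were called lower, beside 8.17% and 7.88% of all genes, and the median log2 ratio was -0.19. CYBA was lower by a log2 ratio of -1.14 (interval -1.19 to -1.08) and TLR2 by -1.35 (-1.97 to -0.79). NCF1, on 11 counts against 0, was 3.38-fold lower with 3 counts in place of 0 (log2 interval at most -1.21). C1QC (0.17, interval -0.16 to 0.50), TYROBP (-0.25, -0.62 to 0.11), LAPTM5 (-0.08, -0.28 to 0.12) and MRC1 (0.11, -0.23 to 0.45) differed by less than 2-fold over their whole intervals. C1QA stood lower at -0.92 (-1.25 to -0.60), and CD163 higher at 0.69 (0.19 to 1.20), neither of them called.

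Between the transplanted kidneys, 4 of the 29 were called higher in CD39/CD46/CD55/TBM and none lower, beside 11.0% of all genes in each direction, so the count of 4 is near the share of all genes. The 4 were MRC1 (27 and 56 counts, log2 ratio 1.30, interval 0.62 to 2.03), CD68 (11 and 23, 1.29, 0.23 to 2.51), SPI1 (12 and 32, 1.64, 0.68 to 2.77) and C5AR1 (0 and 12). With 3 counts in place of 0, C5AR1 was 4.78-fold higher (log2 interval at least 1.73). Of the 28 genes with a count in either kidney, 21 had a ratio above 1 and 7 below, or 75% above 1, beside 50.2% of all genes with a count. These signs include genes with few counts, such as CSF1R with 2 in each kidney, whose ratio above 1 came from scaling. The share of signs was not tested. GPNMB was higher at 0.90 (0.83 to 0.96), under the 2-fold rule. For C1QB, CSF1R, VSIG4, MS4A7 and FCER1G, with 1 to 4 counts a library, no difference was detectable at this depth, and C1QC had none to compare.

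The change on transplantation was then compared between the genotypes, as the ratio of the 2 ratios with a 95% Wald counting interval. It was called higher in CD39/CD46/CD55/TBM for 9 of the 29 and lower for none, beside 10.4% and 11.5% of all genes. The median log2 difference was 0.72, and -0.01 over all genes. For 7 of the 9 this meant a smaller fold loss at 6 weeks in CD39/CD46/CD55/TBM than at 4 weeks in CD39/CD55. The 7 were MRC1, CD68, CYBA, C3AR1, TLR2, TYROBP and C5AR1. Between the transplanted kidneys MRC1, CD68 and C5AR1 were called higher, while CYBA, C3AR1, TLR2 and TYROBP were not called. Before transplantation CYBA and TLR2 were already lower in CD39/CD46/CD55/TBM, by log2 ratios of -1.14 and -1.35. Of the 7, CYBA had the narrowest interval (1.52, interval 1.34 to 1.70). The intervals of C3AR1 (1.60, 0.06 to 3.14) and TYROBP (2.63, 0.04 to 5.21) were wide and only just excluded no difference. GPNMB had the larger increase (1.30, 1.15 to 1.45), and SPI1 had log2 ratios of opposite sign in the genotypes (2.47, 1.30 to 3.65). These values use the same 4 libraries as the ratios above and are no separate evidence.

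**Figure D4:**
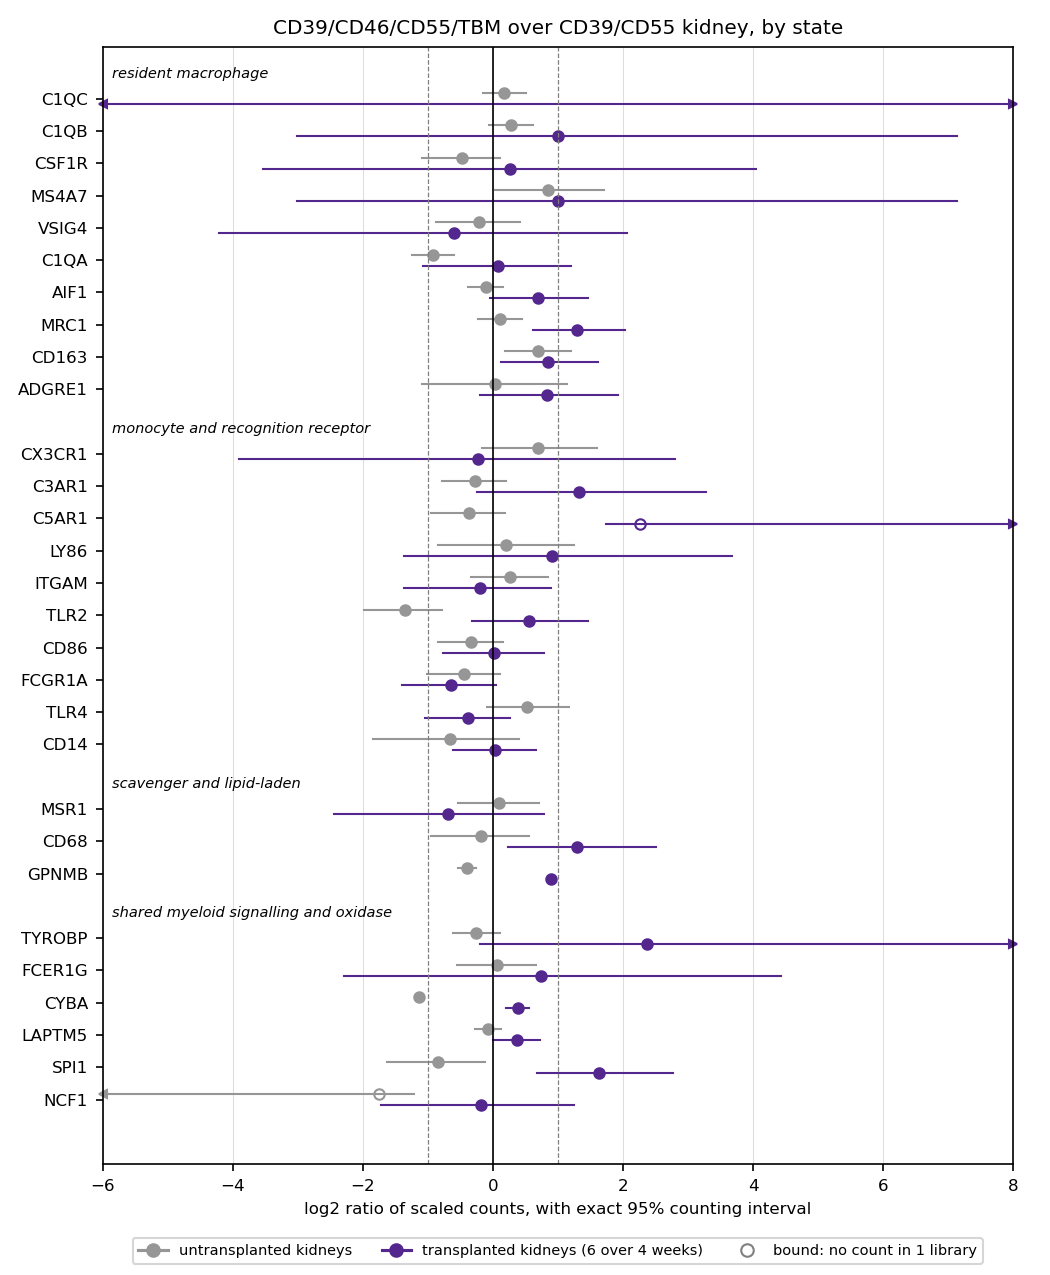
The log2 ratio of CD39/CD46/CD55/TBM over CD39/CD55 for each gene, with its exact 95% counting interval, in untransplanted (grey) and transplanted (purple) kidneys. Open symbols are bounds, arrows mark intervals that leave the plot, dashed lines mark 2-fold, and C1QC has no point for the transplanted kidneys, where it had no count. Most grey points lie within 2-fold of 0, and the purple points of MRC1, CD68, SPI1 and C5AR1 lie to the right.

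The ligands of these receptors were read next. Of 14 growth factor, chemoattractant and ligand genes kept, 1 rose and none fell, beside 1.24% and 2.71% of all genes. CSF1, a ligand of CSF1R, had 44 and 27, and 50 and 67 counts, and IL34, the other, had 259 and 160, and 179 and 174 (adjusted p = 0.841 and 0.872). CCL2, the ligand of CCR2, had 46 and 80, and 73 and 125 (adjusted p = 0.306). CX3CL1, the ligand of CX3CR1, had 111 and 51, and 82 and 46 (adjusted p = 0.413). C3, the source of the ligand of C3AR1, was the gene that rose, from 153 to 431 counts in the 4-week pair and from 101 to 1343 in the 6-week pair (3.10, SE 0.59, adjusted p = 0.0133), while its receptor fell.

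Markers of other cell types were also compared between the states, and their part in the results was not tested. Over all genes tested 2.71% fell and 1.24% rose, the shares to set beside the count of each list here. Among pan-leukocyte genes 1 of 14 kept fell and none rose. The 1 was CD48, with 43 and 0, and 30 and 0 counts (adjusted p = 0.0116), kept only by being high before transplantation. The summed level of the 14 was 57.9 to 73.4 scaled CPM in untransplanted and 29.5 to 36.4 in transplanted kidneys. Of the T and NK cell markers none of 7 passed the test, with 6.16 to 10.6 scaled CPM before and 1.62 to 2.03 after transplantation. B and plasma cell markers (none of 4 passed) had 10.03 to 18.5 and 3.38 to 16.5, dendritic cell markers (none of 5) 85.5 to 89.2 and 65.8 to 79.3, and neutrophil markers (none of 4) 3.28 to 4.03 and 0.565 to 2.22. An unadjusted p under 0.05 was reached by 3, 0, 1 and 1 genes of these 4 lists, beside 3579 of all 18168 genes. Among mast cell markers 2 of 4 fell, FCER1A and MS4A2, both kept only by being high before transplantation. The 4 had summed levels of 50.8 to 51.9 and 41.2 to 56.7 that were mostly KIT. Endothelial markers had 1 of 12 fall, TEK, a call that ended on leaving out any 1 of 3 libraries (untransplanted CD39/CD55, adjusted p = 0.0749, untransplanted and transplanted CD39/CD46/CD55/TBM, 0.0741 and 0.102). Their summed levels were 295.5 to 319.0 and 177.7 to 190.9. Of 19 tubule and glomerulus markers 6 fell, LRP2 and NPHS1 among them, and the 19 summed to 7503 to 9459 scaled CPM before and 1642 to 2057 after transplantation. The defining markers CD3E of T cells and CLEC9A of dendritic cells had at most 5 counts in any library, and CD1E was at 0 in all 4.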

How the data were processed

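The deposited tables hold raw counts of reads per gene symbol, whole numbers to which the authors applied no normalization. Per the labels' protocols, Lexogen QuantSeq libraries were made from total RNA. The submitters' processing notes name Bowtie2, bedtools and Sscrofa11.1. The sources used here give no versions and do not say how strand, multiply mapped reads or primate reads were treated, and no molecular identifiers are mentioned, so intervals cover counting error only. Gene models come from RefSeq's table of the same build.

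Lines of the same symbol were summed. Genes with 10 or more counts in a library were fitted with edgeR 4.0.16 (R 4.3.3) on TMM factors, by the quasi-likelihood test over 18168 genes, with 2 residual degrees of freedom and Benjamini-Hochberg adjustment at 0.05. The SE is the absolute log2 fold change over the square root of F. On each side of a test the genotype or the state differs, so the spread includes those differences. Pairs used a prior count of 0.5 and exact conditional binomial intervals. Alternatives used DESeq2 1.42.0, limma 3.58.1, no filter, a block and leaving out each library. The edgeR code was tested on simulated data. All listed genes are named, and of the other lists up to 6 genes past the threshold or those paired with a listed gene. The genes and lists were chosen with earlier results of these data known. No sequences were used here.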

Additional observations from a re-analysis of the deposited data

Results flagged for a closer look

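SPI1, which encodes the myeloid transcription factor PU.1, had log2 ratios of opposite sign in the genotypes. It had 47 and 12 counts in the 4-week pair, where it was called lower (-1.78, 95% counting interval -2.87 to -0.88). In the 6-week pair it had 24 and 32 and was not called (0.70, -0.10 to 1.53), so a rise was not shown there. The difference of the log2 changes was 2.47 (1.30 to 3.65). With 1 library a group the difference was not tested over replicates.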

How the results depend on the processing

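The direction of every call of the 29 genes held under each alternative that was run, and no alternative made a call in the comparison of genotypes over both states. Of the 12 genes called on transplantation, all 12 passed with DESeq2's size factors, no filter, DESeq2's Wald test and genotype as a block. Limma voom called 7 lower in place of 11, since C3AR1, FCER1G, MS4A7 and VSIG4 did not pass (adjusted p 0.0510 to 0.117). The block added 5 calls (C5AR1, CX3CR1, LAPTM5, MRC1 and MSR1), no filter 4 and the Wald test 2. Leaving out 1 library in turn left 9 to 11 lower and 0 to 1 higher, and it leaves a side with a lone library that is assumed to vary like the other side. Over all genes tested, 225 rose and 493 fell, against 1124 and 1681 with the block, 543 and 1035 without a filter, 431 and 865 with the Wald test, and 1051 and 1349 on leaving out the transplanted CD39/CD55 library. For genotype over all genes, 0 were called in each direction, against 133 higher and 171 lower with state as a block and 12 and 5 with the Wald test. With a 4-fold rule, 0 of the 29 were called higher in CD39/CD55, 1 lower between the untransplanted kidneys (NCF1, 11 counts against 0, whose lower bound of 3.38-fold does not reach that rule), 1 higher between the transplanted kidneys, and 3 higher in the difference of changes. Unscaled totals, DESeq2's size factors and a prior count of 2 moved no count of calls by over 1.5 times. Counts of 0 to 3 after transplantation limit the folds of C1QB, C1QC, CSF1R, MS4A7, TYROBP, FCER1G, C5AR1, CX3CR1 and LY86 in CD39/CD55.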

Other observations

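Further myeloid genes of the pig were measured outside the list above. Of 34 kept, 4 fell and none rose. The 4 were FCGR3A, LST1, IL10RA and CD53. The interleukin-10 receptor chain IL10RA had 50 and 0 counts in the 4-week pair and 41 and 2 in the 6-week pair. The leukocyte tetraspanin CD53 had 79 and 2, and 67 and 7. FCGR3A, IL10RA and CD53 met the minimum only in untransplanted kidneys, so they could be kept only by being high before transplantation. LST1 did not pass without the untransplanted CD39/CD55 library (adjusted p = 0.0542), and IL10RA did not pass with limma voom (adjusted p = 0.0522). The lineage factor IRF8 (46 and 22, 40 and 17 counts) did not pass, and neither did the kinase LYN, with 238 and 250, and 175 and 263. Of 12 genes known from anti-inflammatory and iron-handling macrophages, 1 fell and none rose, beside 2.71% and 1.24% of all genes. The 1 was the folate receptor gene FOLR2, with 6330 and 530, and 3203 and 292 counts (log2 change -3.33, SE 0.52, adjusted p = 0.00506, edgeR). Its counts were far above those of the resident macrophage genes, and which cells carried it cannot be told from these counts. HMOX1, which degrades haem, had 1102 and 127 counts in the 4-week pair and 135 and 66 in the 6-week pair (adjusted p = 0.0801).

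None of 9 inflammatory mediator genes kept passed edgeR's test over both genotypes. An unadjusted p under 0.05 was reached by 2 of them, beside 3579 of all 18168 genes. IL6 had 1 and 20 counts in the 4-week pair and 3 and 10 in the 6-week pair (adjusted p = 0.146). IL1B had 4 and 0, and 5 and 0 counts, and TNF 10 and 1, and 2 and 1, too few to show a difference at this depth.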
